A study of Mus musculus with 2 samples.

Results

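Olfactory receptor genes are the largest gene family of the mouse. Each encodes a G protein-coupled receptor for odorants, and each mature olfactory sensory neuron of the nose transcribes 1 of them, from 1 allele, while the rest are silenced. The genes have short, mostly intronless coding regions and lie in clusters on many chromosomes, and outside the olfactory epithelium most of these clusters lie in closed chromatin. Here the contacts that H3K27ac HiChIP found at such genes in microglia are described. This assay ligates DNA ends that lie near each other in the nucleus and enriches ligated pairs with an antibody to H3K27ac, the histone acetylation found at active promoters and enhancers.

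The set was taken from the mm10 annotation and holds each protein-coding gene whose symbol is Olfr with a number and that had at least 1 called interaction in either library, counted when a 10 kb anchor overlapped the span of the gene with 1 kb on each side. Of 1110 protein-coding Olfr genes 30 had an interaction, 2.70% (exact 95% interval 1.83 to 3.84%), whereas 63% of all 21887 protein-coding genes had one. The genes were chosen by the presence of a called interaction in these libraries, so these shares are a description and carry no test. Of the 30 genes 16 had interactions in both lists, 12 at day 6 alone (31.7% of all genes with an interaction) and 2 in sham alone (2.64%). The sham list thus held 18 of the 30 (60%) and the day 6 list 28 (93.3%), against 68.3% and 97.4% of all 13787 coding genes with an interaction in either list. Over all coding genes, with or without an interaction, these shares were 43% and 61.3%.

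Both libraries came from wild-type male C57BL/6J mice of 8 to 24 weeks. The sham library came from mice that had the surgery without occlusion, and the day 6 library from mice 6 days after 60 minutes of middle cerebral artery occlusion (MCAO), a model of ischemic stroke. Microglia of the sham-operated or the ischemic hemisphere were sorted as CD45-intermediate CD11b-intermediate cells, 200000 to 300000 in number, and the sources used here do not state how many mice went into a library. Each condition had 1 library, so differences could not be tested or checked in replicates, and library and condition cannot be told apart.

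The sham list held 19061 interactions with 501608 contacts and the day 6 list 42905 with 1074041. All 10 microglia markers looked up, P2ry12 and Tmem119 among them, had interactions in both lists, with 2531 contacts summed over the genes in sham and 2761 at day 6. As shares of called contacts, by the rule of size given below, 6 of these 10 counted as having fewer, 0 as having more and 4 as between. Over all genes counted the same way 10.3% had fewer and 39.1% had more. The median log2 ratio was -1.14 over the 10 markers and 0.54 over all genes. The raw sum of these markers was higher at day 6, so its direction depends on the scaling. Of 9 markers of olfactory sensory neurons 7 had an interaction (4 in sham and 6 at day 6, 63 and 261 contacts), while Omp, the olfactory marker protein gene, and Rtp1, which helps receptors reach the membrane, had none. Neuronal markers had an interaction in 3 of 8 genes, and astrocyte, oligodendrocyte, endothelial, monocyte or border macrophage and lymphocyte markers in 4 of 5, 3 of 5, 4 of 5, 4 of 6 and 4 of 6. The part of other cells in the contacts of Olfr genes was not tested.

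RefSeq windows around the annotated start (build GRCm38.p6, the same assembly as mm10, with 250 bases before the start and 50 from it) were held for 26 of the 30 genes. In 15 of the 26 the annotated start was itself the ATG of the coding region, as in 671 of 922 windows of other Olfr genes (72.8%), against 8.13% of windows of all coding genes. The sequence before such a start need not be the promoter, because the upstream noncoding exons of many receptor genes are not in the annotation. Windows are shown for a pair of genes that flank H2-M3 and share a motif (Olfr98 and Olfr99), for a gene with contacts in both libraries and no other coding gene in its bins (Olfr111) and for a gene with contacts at day 6 alone (Olfr1371). In all 4 the start lies in an anchor bin. The start bin of Olfr111 had no interaction in sham and 1 at day 6, and that of Olfr99 had 1 in sham and none at day 6. The other interactions of these genes lay in the neighbouring bin. The windows run 5′ to 3′ on the strand of the gene. Capitals mark the start codon where it is the annotated start and a motif named below.
Olfr98, chr17:37263613-37263912, minus strand: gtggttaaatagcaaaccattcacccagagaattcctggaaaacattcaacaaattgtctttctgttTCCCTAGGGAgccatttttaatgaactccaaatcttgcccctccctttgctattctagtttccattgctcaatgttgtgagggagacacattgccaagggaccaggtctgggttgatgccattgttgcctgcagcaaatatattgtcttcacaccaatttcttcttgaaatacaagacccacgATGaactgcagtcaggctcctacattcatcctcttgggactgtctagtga
Olfr99, chr17:37280369-37280668, minus strand: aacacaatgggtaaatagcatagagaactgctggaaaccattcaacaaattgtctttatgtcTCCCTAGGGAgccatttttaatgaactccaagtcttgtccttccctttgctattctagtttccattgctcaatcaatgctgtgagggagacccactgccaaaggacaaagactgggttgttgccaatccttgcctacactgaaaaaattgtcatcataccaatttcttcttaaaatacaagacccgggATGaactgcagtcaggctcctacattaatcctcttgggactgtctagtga
Olfr111, chr17:37529707-37530006, plus strand: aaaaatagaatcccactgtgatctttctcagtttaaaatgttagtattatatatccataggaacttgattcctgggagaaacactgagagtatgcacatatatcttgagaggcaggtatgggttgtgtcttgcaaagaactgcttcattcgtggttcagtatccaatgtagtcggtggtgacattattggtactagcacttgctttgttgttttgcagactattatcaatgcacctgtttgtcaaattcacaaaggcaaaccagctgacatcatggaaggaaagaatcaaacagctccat
Olfr1371, chr11:52213938-52214237, minus strand: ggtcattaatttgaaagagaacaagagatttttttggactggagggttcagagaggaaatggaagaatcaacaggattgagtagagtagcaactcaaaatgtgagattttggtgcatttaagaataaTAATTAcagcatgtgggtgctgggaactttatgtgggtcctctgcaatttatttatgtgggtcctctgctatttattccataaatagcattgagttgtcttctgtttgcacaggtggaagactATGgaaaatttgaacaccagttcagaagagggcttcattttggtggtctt

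The windows of Olfr98 and Olfr99 were 82.6% identical in a global alignment, with 257 identical, 32 mismatched and 22 gap positions. Both hold TCCCTAGGGA, a match to the palindromic core of the Ebf factors (TCCC and, after any 2 bases, GGGA). These factors act in olfactory neurons and in B cells. This core was present in 2 of 26 windows of the described genes (7.69%), in 3 of 922 windows of other Olfr genes (0.325%) and in 0.959% of all 21263 windows of coding genes. The 3 other Olfr genes were Olfr96 and Olfr108, which lie in the same cluster on chromosome 17, and Olfr698. The homeodomain core TAATTA, present in Olfr1371, was found in 5 of 26 windows, in 18.5% of other Olfr windows and in 4.53% of all. The core GAGGAAGT of PU.1, the ETS factor of microglia, was in none of the 26 windows, in 0.759% of other Olfr windows and in 3.13% of all. TATAAA was in 1 of 26, in 42.1% and in 12.6%. All motifs were searched on both strands, and a match is a description of letters only. The median GC content of the 26 windows was 43.7% (35.3 to 55.7%), above the 35.0% of other Olfr windows and below the 56.3% of all coding genes.

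The described genes lay close to coding genes of other families. The rule did not use this distance but is not independent of it, because a 10 kb anchor shared with a neighbouring gene counts for both. In 10 of the 30 genes an anchor bin held such a neighbour. Their median distance to the nearest coding gene outside the family was 13.9 kb (interquartile range 6.75 to 25.5 kb), whereas that of the 1080 Olfr genes without an interaction was 145.5 kb (58.8 to 340.7 kb). Of the 42 Olfr genes within 10 kb of another coding gene 10 had an interaction (23.8%), of the 258 within 50 kb 26 did (10.1%), and of the 852 farther away 4 did (0.469%). Those 4 were Olfr156, Olfr922, Olfr283 and Olfr1028, the last 432.1 kb from Fads2b. Genes of a cluster are not independent and were not tested against each other.

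**Figure D1:**
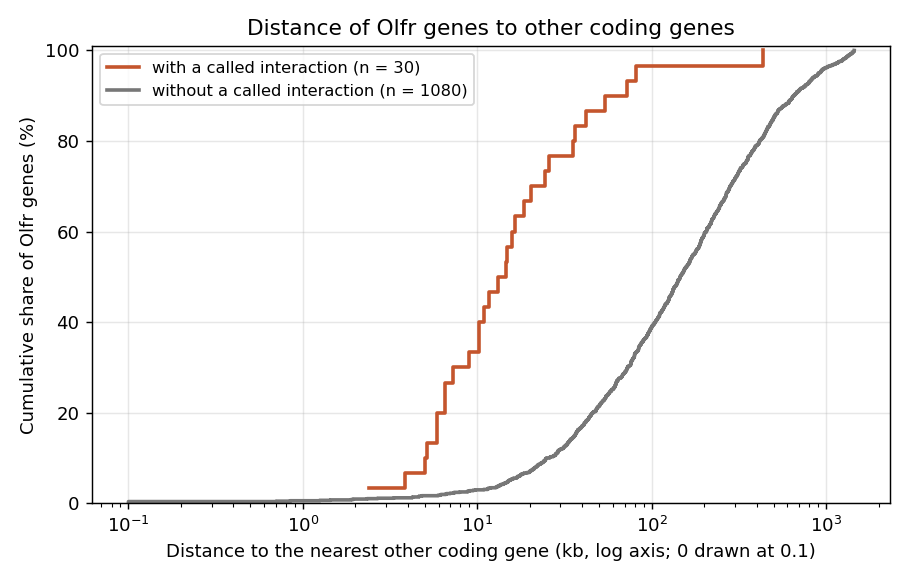
Cumulative share of Olfr genes (%) by distance to the nearest coding gene outside the family (kb, log axis), for the 30 genes with a called interaction and the 1080 without. The curve of the 30 lies to the left, with medians of 13.9 and 145.5 kb.

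With Olfr genes at most 1 Mb apart joined, the 1110 genes formed 50 clusters, of which 17 held a described gene. Of the 90 genes at the edge of a cluster 10 were described here (11.1%), and of the 1020 inner ones 20 were (1.96%). Shares in the largest clusters were below the 2.70% of all Olfr genes, in 1 of them only slightly. The cluster on chromosome 2 with 222 genes had 1 (Olfr1028, 0.45%), the one on chromosome 7 with 126 genes had 3 (2.38%), and the one on chromosome 9 with 95 genes had 1 (Olfr922, 1.05%). The cluster on chromosome 17 beside the major histocompatibility complex (MHC) had 6 of 46 genes, the most of any cluster. Of 1408 10 kb bins with Olfr genes and no other coding gene 22 were anchors (1.56%), of 33 bins with an Olfr gene and another coding gene 10 were (30.3%), and of 119136 bins with other coding genes only 21.9% were.

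Olfr genes have a median span of 950 bp, against 17.2 kb for all coding genes, and a short span meets fewer bins. Among 1624 other coding genes of at most 2 kb 453 had an interaction, 27.9% (25.7 to 30.1%). Shares in other chemosensory families are given for comparison. Vomeronasal receptor genes had an interaction in 2 of 353 (0.567%, 0.0687 to 2.03%), taste receptor genes in 3 of 38, trace amine receptor genes in 4 of 15 and formyl peptide receptor genes in 0 of 7. The 4 trace amine receptor genes, Taar6, Taar7f, Taar8a and Taar9, had interactions at day 6 alone.

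The rule has an edge at 1 kb. In 9 genes (Olfr750, Olfr222, Olfr554, Olfr95, Olfr159, Olfr172, Olfr15, Olfr283 and Olfr1375) the anchor reached only the flank and not the gene. Just outside lay Olfr550, 1.43 kb from an anchor with 1 interaction, Olfr324 at 1.53 kb and Olfr986 at 1.91 kb. The genes with the fewest contacts inside were Olfr922, with 1 interaction of 11 contacts, and Olfr98, with 1 of 14. In the 26 genes with a start in the promoter table the start lay in an anchor bin in 15.

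The 30 genes lay in 32 anchor bins at 29 loci, since Olfr432 and Olfr433 share a bin. In sham they had 24 interactions with 617 contacts (exact Poisson interval 569 to 668), 0.123% of the contacts of that list (0.113 to 0.133%). At day 6 they had 68 with 1423 contacts (1350 to 1499), 0.132% (0.126 to 0.140%). The raw sum was thus higher at day 6, and the intervals of the shares overlap. Intervals here cover counting error only, because 1 library per condition gives no spread between libraries. Any PCR copies left among the contacts are not allowed for.

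**Figure D2:**
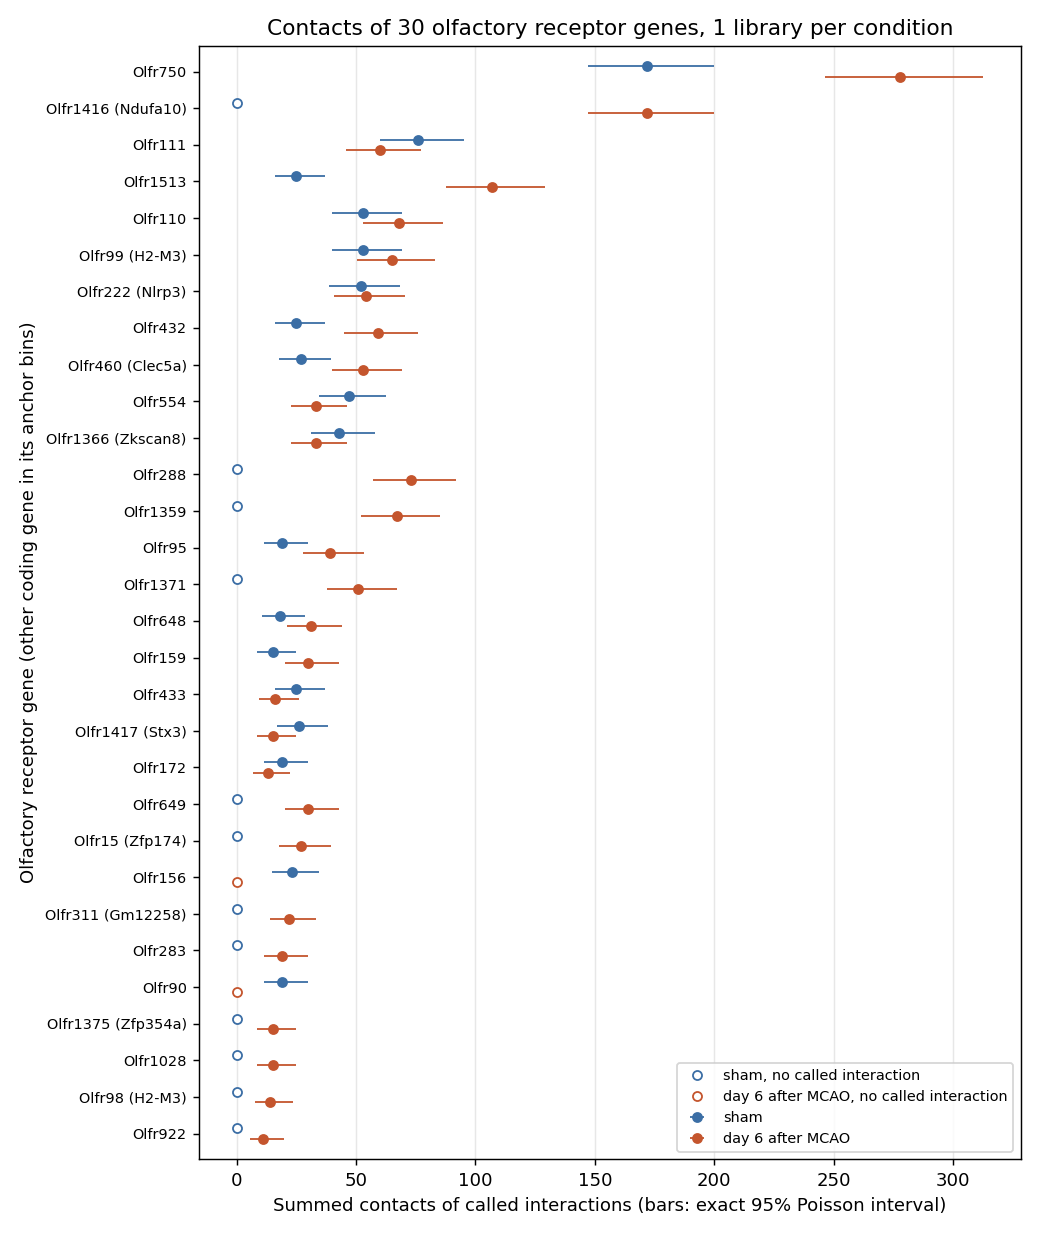
Summed contacts of called interactions (horizontal axis) for each of the 30 Olfr genes in sham and at day 6, with exact 95% Poisson intervals, ordered by the sum over both libraries. Open circles at 0 mark genes with no called interaction in that list, 12 in sham and 2 at day 6, and names in brackets are other coding genes in the anchor bins.

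Libraries were compared by a log2 ratio, day 6 over sham, of shares of called contacts, with a library-scaled prior of 5 contacts in each gene. A gene with at least 3 interactions in 1 list counted as having more contacts at a log2 ratio of at least 1 and as having fewer at -1 or less. Only 10 of the 30 genes had 3 interactions in a list, against 69.9% of all genes with an interaction. Of these 10, 4 had more contacts at day 6 (39.1% of all 9638 genes counted the same way), 1 had fewer (10.3%) and 5 were between. The median log2 ratio was 0.52 over the 10 and 0.54 over all. The 4 with more, Olfr1416, Olfr288, Olfr1359 and Olfr1371, had no interaction in sham, so the size of their ratio rests on the prior. Their level below the caller's threshold in sham is unknown.

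Over the 16 genes with interactions in both lists the median log2 ratio was -0.71 (range -1.52 to 0.92), against 0.03 over all 9053 such genes. No minimum of interactions was set for these 2 medians. The sets differ in interaction number, since 10 of the 30 Olfr genes had 3 in a list against 69.9% of all genes with an interaction. In raw contacts 10 of the 16 were higher at day 6, and as shares of called contacts 2 were. The direction therefore depends on the scaling, as the total of called contacts at day 6 was 2.14 times that of sham. The modelled contacts of a library (the constant that links the caller's probability to its expected count) went the other way. They were 3629250 in sham and 2258259 at day 6. With scaling by modelled contacts 7 of the 10 genes with 3 interactions had more contacts and 0 had fewer. The shares of all genes under this scaling were not computed, so these counts cannot be set beside them.

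In 10 of the genes an anchor bin also held a coding gene of another family, and contacts of such a bin cannot be assigned to either gene. The bins of 18 held no other coding gene, Olfr genes included, against 43.8% of all genes with an interaction. Olfr1416 lies at the edge of a cluster on chromosome 1 (92479681 to 92480619, mm10) in a bin with Ndufa10, which encodes a subunit of mitochondrial complex I. It had no interaction in sham and 9 at day 6, with 172 contacts (147 to 200). These were also all the interactions of Ndufa10. They ran over 200 kb to 1870 kb, to bins of Cops8, Ube2f, the clock gene Per2, Thap4, Pdcd1, which encodes PD-1, and the histone deacetylase gene Hdac4 (a pair of bins with 33 and 20 contacts), and to 2 bins without a coding gene. The relative coverage of this bin, its coverage over 1 constant per library, was 3.21, higher than in 98.8% of the day 6 anchors, and the annotated start of Olfr1416 lay outside it.

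Bins of Olfr222 and Olfr460 held genes of innate immunity. Olfr222 had 1 interaction with 52 contacts in sham and 2 with 54 at day 6, a log2 ratio of -0.96 (-1.62 to -0.47 by counting error), in a bin of Nlrp3, the inflammasome sensor. Over all its bins Nlrp3 had 52 sham and 269 day 6 contacts, with a log2 ratio of 1.22, so that most day 6 contacts of Nlrp3 lay outside the shared bin. Olfr460 shared a bin with Clec5a, a myeloid C-type lectin receptor gene. Its contacts numbered 27 and 53, with a log2 ratio of -0.11 (-0.82 to 0.60). In both lists this bin contacted Ssbp1, a mitochondrial DNA-binding protein gene 90 kb away, with 27 contacts in sham and 37 at day 6.

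Other shared bins held genes of varied function. Olfr1417 lay in a bin of Stx3, a syntaxin of membrane fusion, and had 26 contacts in sham and 15 at day 6. Its sham partners were the bins of Ms4a6d and of Mpeg1 and Dtx4, genes of which Mpeg1 encodes the macrophage pore-forming protein perforin-2, and its day 6 partner was Fam111a. Stx3 as a whole had 158 and 152 contacts. Zinc-finger genes were neighbours of 3 genes. Olfr1366 shared all its contacts with Zkscan8, 43 in sham and 33 at day 6. Olfr15 shared all of its 27 day 6 contacts with Zfp174. Olfr1375 had 15 contacts at day 6 in a bin of Zfp354a, and Olfr311 had 22 at day 6 in a bin of the predicted gene Gm12258.

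The cluster beside the MHC on chromosome 17 had 5 interactions with 125 contacts in sham and 11 with 215 at day 6, over 6 genes. It also held 4 interactions that joined a pair of described Olfr genes, the only such ones among the 92 of both lists. Olfr99 (37279501 to 37280418, mm10) and Olfr98 flank H2-M3, a nonclassical class I gene whose product presents formylated peptides. Contacts of Olfr99 numbered 53 in sham and 65 at day 6 with a log2 ratio of -0.74 (-1.35 to -0.25), and Olfr98 had none in sham and 14 at day 6. H2-M3 had 42 and 79 contacts, all in bins of these 2 genes, and it reaches the bin of Olfr98 by its flank only. The bin of H2-M3 and Olfr99 contacted Olfr111 in both libraries, 260 kb away with 23 contacts in sham and, in the next bin, 250 kb away with 31 contacts at day 6.

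Olfr111 and Olfr110 had contacts in both libraries with no other coding gene in their bins. Contacts of Olfr111 numbered 76 in sham (59.9 to 95.1) and 60 at day 6 (45.8 to 77.2), and with a log2 ratio of -1.34 (-1.95 to -0.93) it was the 1 gene that counted as having fewer. With scaling by modelled contacts its log2 ratio was 0.32, so the direction turned. Olfr110 had 53 and 68, with a log2 ratio of -0.69 (-1.28 to -0.19). In sham both genes were joined by an interaction of 53 contacts over 40 kb. At day 6 Olfr110 had 25 contacts with each of 2 bins 50 and 60 kb away that hold no coding gene, and 18 with the bin of Ppp1r11 and Znrd1. The relative coverage of a bin of Olfr111 was 1.81 in sham and 2.25 at day 6, above 95.4% and 94.9% of the anchors of those lists. At day 6 Olfr111 also contacted Trim31, a tripartite motif gene, with 15 contacts over 620 kb. Olfr95 contacted Trim26, Trim15 and Trim10 in 1 bin with 25 contacts, and Gabbr1, a GABA receptor subunit gene, with 14. Olfr90 had 19 contacts with Olfr95 in sham and none at day 6.

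**Figure D3:**
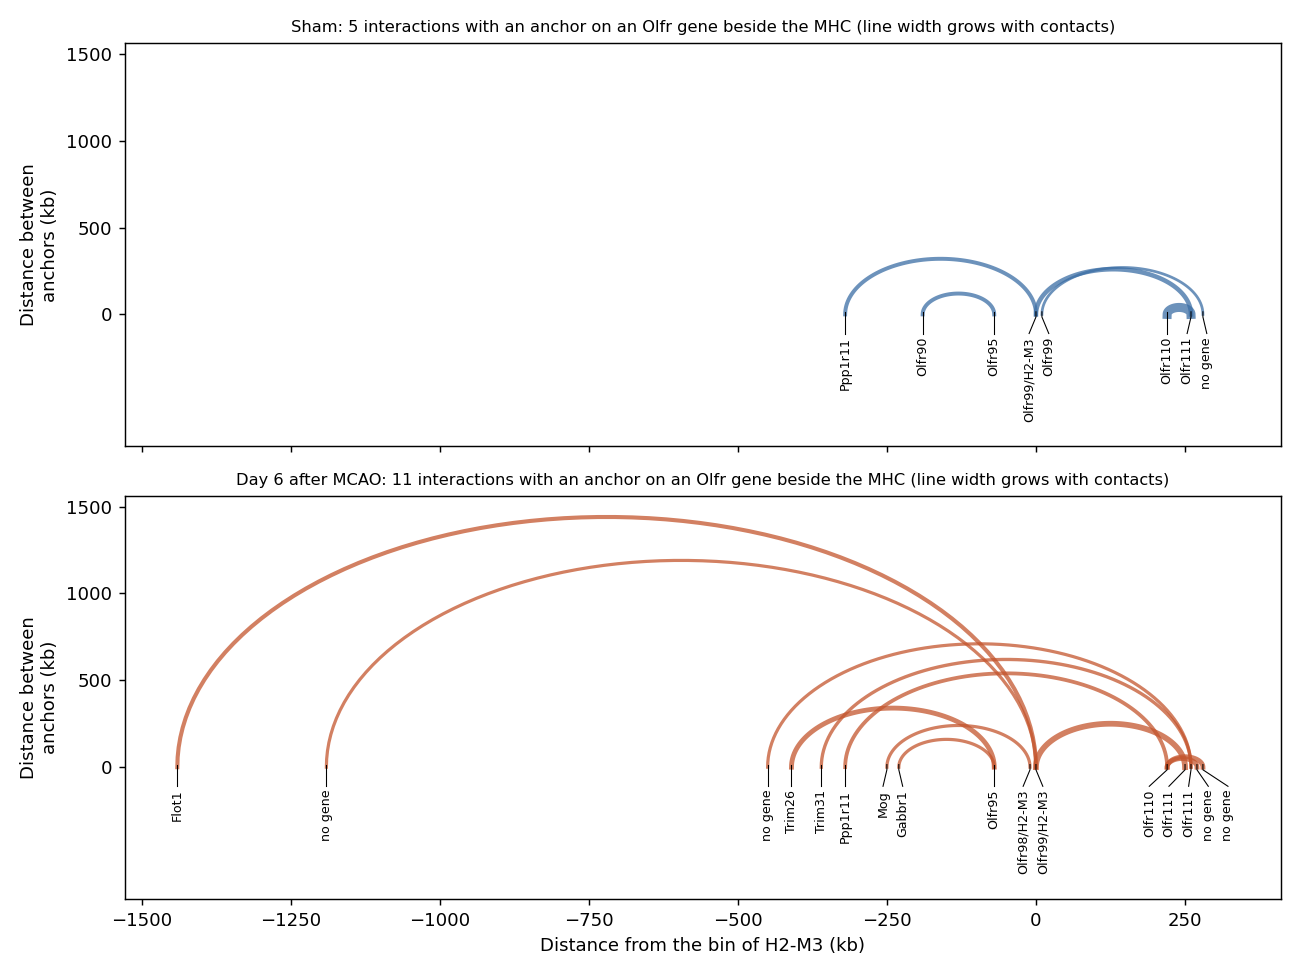
Interactions of Olfr genes beside the MHC on chromosome 17, as arcs whose height is the distance between anchors (kb), against the distance from the bin of H2-M3 (kb), in sham (5 interactions) and at day 6 (11). The first coding gene of each partner bin is named, and "no gene" marks a bin without a coding gene. The longest sham arc spans 320 kb and the longest day 6 arc, to Flot1, spans 1440 kb.

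Olfr750 on chromosome 14 had the most contacts of the 30 genes, 172 in sham (147 to 200) and 278 at day 6 (246 to 313), with a log2 ratio of -0.40 (-0.69 to -0.12). Its anchor bin (51060001 to 51070000, mm10) holds no other coding gene and meets Olfr750 only in the flank. It does hold 3 tRNA genes (n-TLaag8, n-TPagg4 and n-TTtgt3) and the noncoding RNA gene Gm52088. Interactions numbered 5 in sham and 9 at day 6, and 3 joined the same bins. The one with the most contacts ran 30 kb to Ang and Rnase4, genes of secreted ribonucleases, with 77 sham and 82 day 6 contacts. These were only 1.88 and 2.49 times the number expected, and 1.88 was the lowest ratio of the sham interactions described here. The others in common were those to Ccnb1ip1 (22 and 19 contacts) and to a bin of Parp2, a DNA repair enzyme gene (24 and 25). A day 6 interaction with Pnp, which encodes purine nucleoside phosphorylase, had 41 contacts, 6.17 times the number expected, and was not called in sham.

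Olfr1513 lies in the same cluster of chromosome 14. It had 25 contacts in sham, with the bin of Rab2b and Tox4, and 107 at day 6 (87.7 to 129), with a log2 ratio of 0.92 (0.36 to 1.69). Its 3 day 6 interactions went to Zfp219 and Tmem253 (38 contacts), to the transcription factor gene Sall2 (36) and to Mettl3 (33), the gene of the RNA N6-adenosine methyltransferase. The interaction with Zfp219 stood 10.2 times above the expected count, the highest ratio of the 92, and the relative coverage of the Olfr1513 bin at day 6 was 0.72.

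On chromosome 1, Olfr432 and Olfr433 lie among the p200 genes, which encode interferon-inducible DNA sensors. In sham they shared 1 interaction of 25 contacts with Ifi202b. At day 6 they shared 1 of 16 contacts with Kcnj10, a potassium channel gene 1700 kb away, and Olfr432 had 26 contacts with Ifi205 over 20 kb and 17 with Aim2, a cytosolic DNA sensor gene, over 610 kb. In sum Olfr432 had 25 and 59 contacts, with a log2 ratio of 0.13 (-0.56 to 0.88), and Olfr433 25 and 16.

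The cluster on chromosome 7 that also holds the beta-globin genes had 3 of its 126 members. Olfr648 had 18 contacts in sham and 31 at day 6, with Trim6, a tripartite motif gene 60 kb away, in both lists (18 and 20 contacts) and with Trim12a at day 6. Olfr649 had 30 at day 6, with Trim6 and Trim34a. Olfr554 contacted, in sham as at day 6, the same 2 bins without a coding gene 120 and 130 kb away, with 47 contacts in sham and 33 at day 6.

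Genes with interactions at day 6 alone and no other coding gene in their bins had from 1 to 4 interactions. Olfr288 on chromosome 15 had 73 contacts (57.2 to 91.8), among them 25 with Adcy6, an adenylyl cyclase gene, over 430 kb at 8.01 times the expected count. Olfr1359 on chromosome 13, whose bin holds 2 tRNA genes, had 67 contacts (51.9 to 85.1). Its largest interaction, with 27 contacts over 540 kb, went to a bin without a coding gene. The other 40 contacts were with the histone genes H4c11, 30 kb away (24 contacts), and H2bc9 and H3c7, 1840 kb away (16 contacts). Olfr1371 had 51 contacts, of which 21 went to a bin without a coding gene over 290 kb. Another 16 went to Sqstm1, the gene of the autophagy receptor p62, over 2000 kb. Olfr283 had 19 contacts with the bin of Kmt2d, an H3K4 methyltransferase gene, and Rhebl1. Olfr1028 had 15 with that of Ube2l6, which encodes an ISG15-conjugating enzyme, and Smtnl1, and Olfr922 had 11 with Siae. The last 2 lay deep inside large clusters, at rank 27 and 43 from the nearer edge.

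The remaining genes had few contacts. Olfr172 had 19 contacts in sham and 13 at day 6, and Olfr159 had 15 and 30. Olfr156, in the same cluster of chromosome 4 as Olfr159, had 23 in sham, with a bin without a coding gene at 70 kb, and none at day 6. The sham partner of Olfr159 was the bin of Reck, a gene of a metalloprotease inhibitor, 110 kb away.

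The interactions of Olfr genes had a longer median distance at day 6 than the list they came from. The median distance was 130 kb in sham (140 kb for the whole list) and 305 kb at day 6 (160 kb). Over 1 Mb lay 0 of 24 in sham (interval 0 to 14.2%; 2.68% of the whole list) and 17 of 68 at day 6 (25%, 15.3 to 37.0%; 9.45% of the whole list), of which 6 came from the bin of Olfr1416. Interactions that share an anchor bin are not independent, while these intervals take them as independent, so they carry no test. The median ratio of observed to expected contacts was 4.55 in sham and 4.74 at day 6, against 4.21 and 4.16 in the whole lists. A coding gene lay at the other end of 79.2% in sham and 82.4% at day 6, against 78.5% and 82.4% of ends opposite a gene in the whole lists. In all, 77 coding genes outside the family were partners. In 8 interactions both bins were the same in both lists, 33.3% of the 24 and 11.8% of the 68, against 24.6% and 10.9% in the whole lists.

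**Figure D4:**
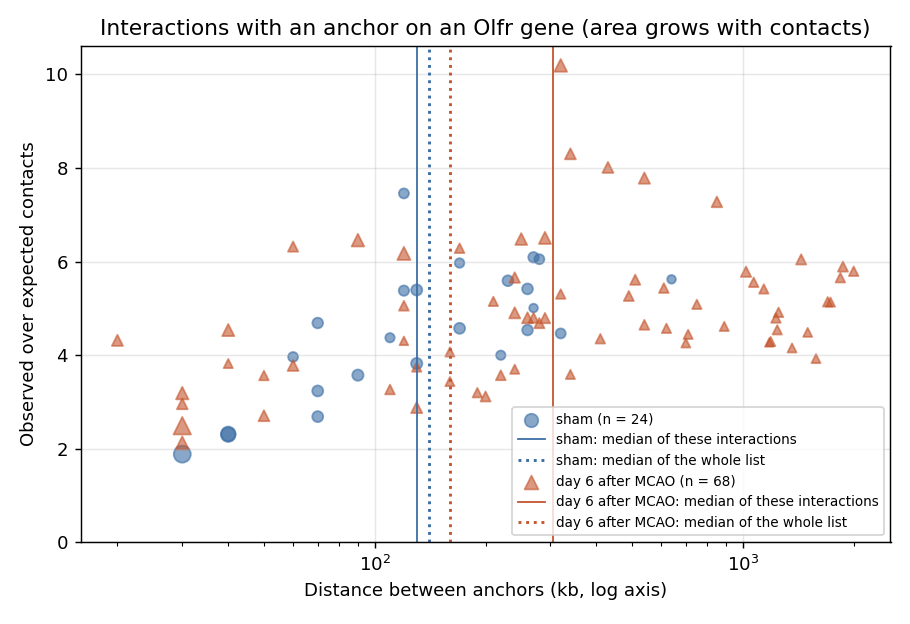
Ratio of observed to expected contacts (vertical axis) against distance between anchors (kb, log axis) for the 24 sham and 68 day 6 interactions with an anchor on an Olfr gene. Solid lines mark their median distances (130 and 305 kb) and dotted lines those of the whole lists (140 and 160 kb). No sham point and 17 day 6 points lie above 1 Mb.

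The relative coverage of the bins, a ratio to 1 constant per library, was below the median of all anchors in 10 of 18 sham bins and 18 of 29 day 6 bins. The bin medians were 0.90 in sham (range 0.46 to 1.81) and 0.81 at day 6 (0.41 to 3.21), against 1.05 and 0.92 over all anchors. The low end was Olfr90 in sham and Olfr1417 at day 6, and the high end was Olfr111 in sham and Olfr1416 at day 6. A bin had a median of 1 interaction in sham and 2 at day 6, as did all anchors.

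The machinery that serves these receptors in olfactory neurons was looked up in a list of 35 genes of signalling, receptor trafficking and receptor choice. Of these 27 had an interaction, 16 in sham and 26 at day 6, where 63%, 43% and 61.3% of all coding genes had one. Of 19 with at least 3 interactions in a list 7 had more contacts at day 6, 3 had fewer and 9 were between (median log2 0.37), against 39.1%, 10.3% and 0.54 over all genes. The 4 with the most contacts over both lists were Gnb1, a G protein beta subunit gene, with 450 in sham and 730 at day 6, Cbx5, which encodes the heterochromatin protein HP1 alpha and had fewer by the rule of size (291 and 258, log2 ratio -1.25), Slc8a1, a sodium-calcium exchanger gene (95 and 285), and Pde4a, a cAMP phosphodiesterase gene (none and 343). Setdb1, a histone H3K9 methyltransferase gene (83 and 56), and Atf5, a transcription factor gene (66 and 62), were the others with fewer. Of the Ebf genes, Ebf1 had 54 sham and 75 day 6 contacts, Ebf3 had 22 and 42, Ebf4 had none and 60, and Ebf2 had no interaction in either list. The homeodomain factor genes Lhx2 and Emx2 also had none, whereas Ldb1, the partner of Lhx2, had none in sham and 185 contacts at day 6. Of the transduction genes, Adcy3 had 19 and 52 contacts, Cngb1 53 and 139, Gnal none and 41, and Cnga2 13 and none.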

How the data were processed

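H3K27ac HiChIP of sorted mouse microglia was analysed from 2 deposited lists of called interactions, 1 per library. The submitters' processing notes name HiC-Pro 3.1.0 with mm10 and GRCm38. The caller, its settings and the treatment of reads that map to several near-identical receptor genes are not given in the sources used. Per the file headers and values, the deposited contacts and anchor coverage are whole counts, the bias of an anchor is a ratio of its coverage to 1 constant per library (1099 in sham and 799 at day 6), the expected contacts are a signal of the authors' caller, and its contact probability is a fraction. The q-values are the authors' own, at most 0.000999 in sham and 0.001 at day 6. Every anchor is a 10 kb bin.

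Genes and windows came from RefSeq tables of GRCm38.p6. Contacts were summed per gene, and gene and anchor overlaps were checked by brute force and the rule of size on simulated data (Python 3.11.15, pandas 2.3.3, numpy 2.4.6, scipy 1.17.1). Shares have exact Clopper-Pearson and sums exact Poisson 95% intervals. Intervals of log2 ratios come from the exact binomial interval, without the prior. Alternatives were other flanks (0 or 5 kb), gene ends or starts only, a q-value limit of 1e-05, lists of equal length, other scalings and priors of 1 and 20 contacts. Loci were named by most contacts, presence in 1 list, largest and smallest log2 ratio, and bins with no other coding gene. The remaining genes are named because every gene of the set is accounted for. The genes and lists were chosen with earlier results of these data known.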

Additional observations from a re-analysis of the deposited data

How the results depend on the processing

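With gene ends only and with priors of 1 or 20 contacts all summary values stayed close to those reported. Except where no minimum was set, each median covers only genes with at least 3 interactions in a list. Without the flank 21 genes remained and the median log2 ratio was 2.00 in place of 0.52. Olfr750 then had no interaction and Olfr432 fell to 2, so neither entered this median. With a flank of 5 kb there were 44 genes, 4 of them in sham alone, 2 with fewer contacts and a median of 0.13. With the stricter q-value limit there were 25 genes, 4 in sham alone, 0 with fewer contacts and a median of 3.59. Only Olfr1416, Olfr1513, Olfr432 and Olfr750 then had 3 interactions in a list, with log2 ratios from -0.079 to 4.19. Olfr111, left with 2 interactions in sham and 1 at day 6, was not counted and had a log2 ratio of -2.44. With lists of equal length 24 genes were left, 6 with interactions at day 6 alone and 6 in sham alone, with 2 having more contacts, 0 fewer and a median of 0.91. That median rests on Olfr1416, Olfr1513, Olfr750 and Olfr99, the only genes with 3 interactions in a list. Olfr111 again had too few interactions to be counted, with a log2 ratio of -1.42. With the annotated start only, an alternative chosen after seeing the data, 15 genes were left. Of these 10 had no other coding gene in their bins and 7 had interactions at day 6 alone. Only Olfr1371 (log2 ratio 3.08) and Olfr110 (-0.69) had 3 interactions in a list, so 1 had more contacts, 0 fewer and the median was 1.20. Olfr111 then had 1 interaction, at day 6, and a log2 ratio of 2.47. Scaled by shared interactions, 6 had more and 0 fewer contacts (median 1.49, Olfr111 at -0.32), and scaled by modelled contacts 7 and 0 (median 2.11, Olfr111 at 0.32). With no minimum of interactions 12 had more and 8 fewer, and the median turned to -0.066. Shares and medians over all genes were computed in the main setting only. The counts and medians of the other settings therefore have no value of all genes beside them. The settings that left fewer genes were no flank, the stricter limit, lists of equal length and the annotated start. The cause of the other changes was not tested. In 20 of the 30 genes neither list held 3 interactions, so a single interaction near the caller's threshold can move a gene between lists. No paired analysis was possible because each condition has 1 library.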
